A study of Mus musculus with 16 samples.

Results

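The 7 mature miRNAs known from blood cells that are described here were followed through small RNA libraries of mouse blastocyst fragments. They were listed by name, 3 for red blood cells (mmu-miR-451a, mmu-miR-144-5p and mmu-miR-144-3p) and 4 for white blood cells (mmu-miR-142a-5p, mmu-miR-142a-3p, mmu-miR-146b-5p and mmu-miR-155-5p), and they are 7 of the 1978 mature miRNA names in each library. A laser separated each blastocyst into a polar fragment, with the inner cell mass, and a mural fragment of trophectoderm. Polar and mural fragments were each sequenced from blastocysts in diapause, collected at EDG 7.5 as the labels write it (3 libraries per fragment), from blastocysts paused by mTOR inhibition, written mTORi (3 libraries per fragment), and from WT blastocysts at E4.5 (2 libraries per fragment). Diapause is the natural arrest of the blastocyst before it implants, and the study asked which miRNAs differ when pausing is natural or induced. The labels give no strain, no day or dose for mTORi and no number of embryos per library, and age cannot be told apart from treatment. In the titles of the 3 mural mTORi libraries no fragment is named and the word diapaused appears; their labels for tissue and treatment, with the headers of their files, were followed here. Nothing in the labels says that replicates came from separate litters or cultures, so p-values measure only the spread between these samples.

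Blood cells carry a few miRNAs at very high levels. miR-451a and miR-144 come from 1 primary transcript that the erythroid factor GATA1 switches on, and miR-451a is the dominant miRNA of circulating red cells. miR-142a is restricted largely to blood cells and present in nearly all of them. miR-146b and miR-155 are induced by inflammatory signals in white blood cells, miR-146b restraining and miR-155 promoting the response, and both are also made by other tissues. A blastocyst has no circulation and forms no blood before it implants, while maternal blood vessels run through the uterine wall around it. The counts below come from whole fragments, in which fewer cells of a type and less RNA per cell cannot be told apart.

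The mature sequences show how distinct these miRNAs are, since a short read is assigned by its letters alone. All 7 matched an entry in RefSeq (build GRCm38.p6) and are written 5′ to 3′, with the seed, bases 2 to 8, in capitals.
mmu-miR-451a: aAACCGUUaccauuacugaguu
mmu-miR-144-5p: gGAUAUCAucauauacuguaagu
mmu-miR-144-3p: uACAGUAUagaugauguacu
mmu-miR-142a-5p: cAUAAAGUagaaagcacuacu
mmu-miR-142a-3p: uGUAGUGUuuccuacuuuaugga
mmu-miR-146b-5p: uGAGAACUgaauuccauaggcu
mmu-miR-155-5p: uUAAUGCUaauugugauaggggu
No 2 of the 7 share a seed. miR-146b-5p shares its seed GAGAACU with miR-146a-5p, the other miRNA of its family, which is shown for comparison.
mmu-miR-146a-5p: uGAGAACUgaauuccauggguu
The pair differs at 2 of 22 positions, A18G and C21U, counted from 1 at the 5′ end with the base of miR-146b-5p first, so a read that ends before position 18 could come from either.

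The hairpins place the erythroid miRNAs side by side in the genome. Mir144 (chr11:78073005-78073070, plus strand) and Mir451a (chr11:78073170-78073241, plus strand) are 99 bases apart in GRCm38. Both hairpins are shown with their mature arms in capitals, because the 2 are cut from the precursor in different ways.
Mir144: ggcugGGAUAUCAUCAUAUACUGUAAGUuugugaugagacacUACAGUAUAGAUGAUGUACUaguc
Mir451a: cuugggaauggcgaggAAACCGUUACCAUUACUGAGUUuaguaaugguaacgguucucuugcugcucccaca
Mir144 carries an arm on each side of its loop, the form that the enzyme Dicer cuts. Mir451a carries 1 arm, at bases 17 to 38 of 72, which runs into the loop. RNAfold placed 4 of its 22 bases in the loop, against 0 bases for each of the other 6 miRNAs. Mir451a is the classical case of a hairpin that is cut by Argonaute 2 without Dicer. Mir142 (chr11:87756864-87756927, plus strand) lies in an intron of the long noncoding RNA Mir142hg, Mir146b (chr19:46342762-46342870, plus strand) in an intron of the protein-coding gene Mfsd13a, and Mir155 (chr16:84714140-84714204, plus strand) in an exon of the noncoding RNA Mir155hg. Mir142 and Mir451a each overlap an antisense miRNA gene, Mir142b and Mir451b. Whether counting used the strand is not given in the sources used here, so it is not known whether reads from such a pair were kept apart.

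The 16 libraries held 122251 miRNA counts, from 1744 in polar WT replicate 1 to 20051 in mural diapaused replicate 2. At these depths a single count was worth between 49.9 and 573 CPM (counts scaled to a library of 1e6 miRNA counts). Embryonic miRNAs of the miR-290/miR-295 cluster, abundant in early mouse embryos, took 27.9% to 55.3% of the counts of each library. They took their highest share in polar WT replicate 2 and between 27.9% and 51.0% in the other 15. Polar WT replicate 2 stood apart in the blood cell miRNAs, and results that rest on it are given with and without it. It had counts of 7 of the 7 miRNAs, against 2 to 4 of 7 in every other library, although its total of 4940 counts ranked only 9th of 16. The 95% intervals below are exact (Clopper-Pearson for shares). They cover counting error only and leave out the spread between libraries, also where libraries are pooled. PCR duplicates may not have been collapsed, and the intervals would then be too narrow for counting error as well.

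**Figure D1:**
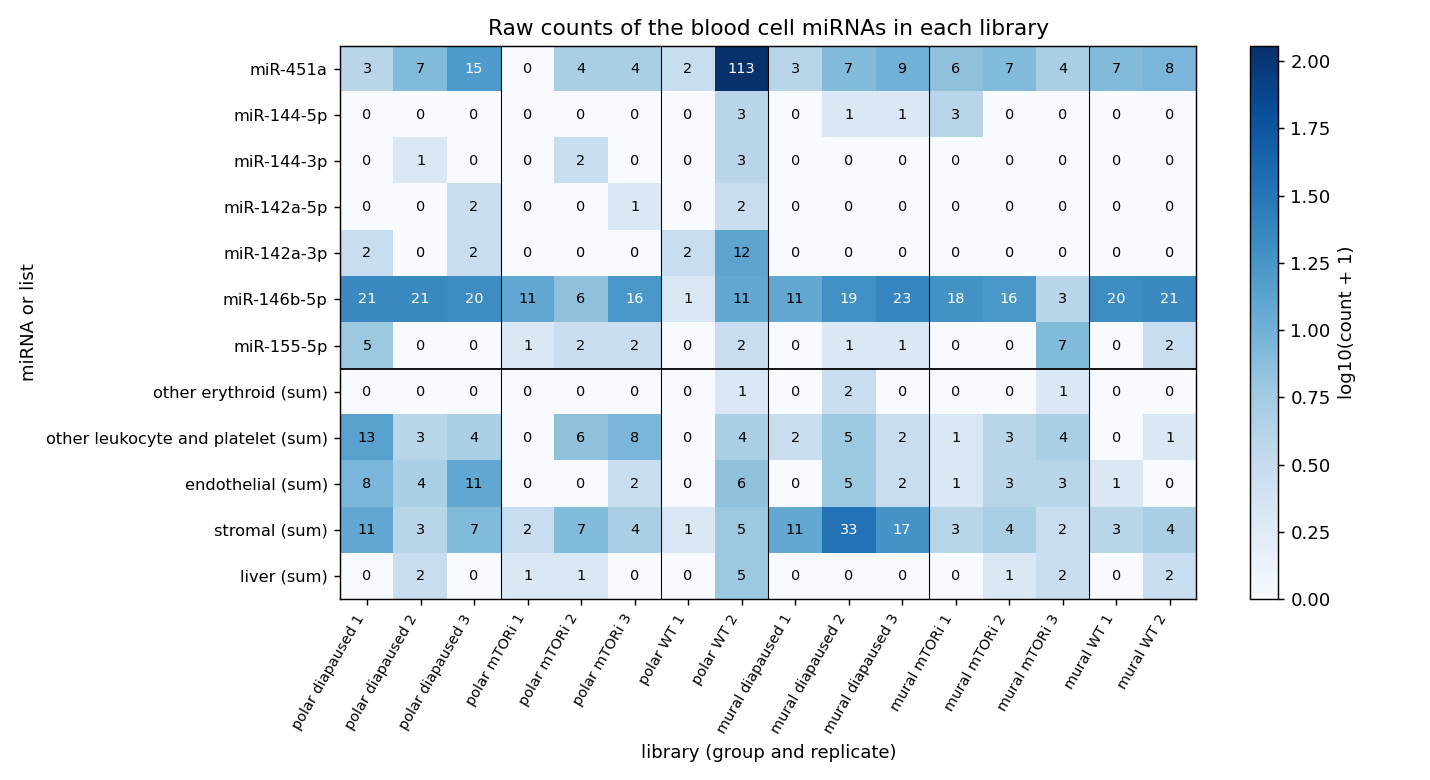
Raw counts of the 7 blood cell miRNAs (upper block) and of summed miRNAs known from other cell types (lower block) in each of the 16 libraries. Cell colour is log10 of the count plus 1 and the number is the count. miR-451a stood at 113 in polar WT replicate 2 and at 0 to 15 elsewhere, while miR-146b-5p had a count in every library.

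miR-451a was a minor miRNA in 15 of the 16 libraries and a leading one in polar WT replicate 2. Its counts were 3, 7 and 15 in polar diapaused libraries, 0, 4 and 4 in polar mTORi libraries, and 2 and 113 in polar WT libraries. In mural fragments they were 3, 7 and 9 in diapaused, 6, 7 and 4 in mTORi, and 7 and 8 in WT libraries. Polar WT replicate 2 held 56.8% of the 199 counts, and no other library exceeded 15.

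Scaled to library depth, polar WT replicate 2 was at 22874.5 CPM (95% interval 18888 to 27438) and polar WT replicate 1 at 1147 CPM (139 to 4136), a ratio of 19.9 (exact 95% interval 5.40 to 167). The other 15 libraries ran from 0 to 1937 CPM, with a median of 1088 CPM. miR-451a ranked 6th of all names in polar WT replicate 2 and 92nd by its mean level over the other 15. Polar mTORi replicate 1 had 0 of 3061 counts, with an exact 95% upper limit of 1204 CPM. Polar mTORi replicates 2 and 3 were at 1831.5 and 1143 CPM.

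By group, miR-451a averaged 867 ± 734 CPM in polar diapaused (SD, n = 3), 991 ± 925 in polar mTORi (n = 3) and 12011 ± 15364 in polar WT libraries (n = 2). In mural fragments it averaged 398 ± 190 CPM in diapaused (SD, n = 3), 1484 ± 408 in mTORi (n = 3) and 1022 ± 93.0 in WT libraries (n = 2). By mean, the order from high to low was polar WT, mural mTORi, mural WT, polar mTORi, polar diapaused and mural diapaused. The SD of polar WT exceeds its mean, and its lower library lies within the range of the mural mTORi, polar mTORi and polar diapaused libraries and above both mural WT libraries. Of neighbours in this order, only mural mTORi and mural WT had libraries that did not overlap, by a gap of less than 1 count. The median library of mural diapaused fragments, at 349 CPM, was the lowest group median.

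The 2 arms of miR-144, the partner of miR-451a on the same transcript, were rare. miR-144-5p had 8 counts, 3 in polar WT replicate 2, 3 in mural mTORi replicate 1, and 1 each in mural diapaused replicates 2 and 3. miR-144-3p had 6 counts, 3 in polar WT replicate 2, 2 in polar mTORi replicate 2 and 1 in polar diapaused replicate 2. Both arms appeared together only in polar WT replicate 2. The 3p arm had 0 counts in all 8 mural libraries, where 3 counts over their 73762 counts would be 40.7 CPM.

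The proportion of miR-144 to miR-451a was taken inside and outside polar WT replicate 2. Because that library was singled out by its miR-451a count, such proportions are given as descriptions. There were 5.31 counts of miR-144 for each 100 of miR-451a in that library (exact 95% interval 1.91 to 11.9) and 9.30 in the other 15 together (3.89 to 19.2). The intervals overlap widely, and with 6 and 8 counts of miR-144 they are too broad to show that the proportions were alike.

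The 2 arms of miR-142a were found in polar fragments alone. miR-142a-3p had 2, 0 and 2 counts in polar diapaused libraries, 0, 0 and 0 in polar mTORi libraries, and 2 and 12 in polar WT libraries. miR-142a-5p had 0, 0 and 2 counts in polar diapaused libraries, 0, 0 and 1 in polar mTORi libraries, and 0 and 2 in polar WT libraries. Every mural library had 0 counts of both arms.

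Counted together, the 2 arms gave 23 counts in 5 of the 8 polar libraries and 0 in the 8 mural libraries. There were 48489 polar and 73762 mural counts in all. How many of the 497 names with a count had counts in polar libraries alone was not counted. Polar diapaused libraries had a count for 257 to 296 names, and mural diapaused libraries for 209 to 259. By treatment, polar against mural counts of miR-142a were 16 to 0 in WT, 6 to 0 in diapause and 1 to 0 in mTORi. The lower limits of these ratios were 8.54, 1.69 and 0.0337. The exact 95% interval of the ratio of pooled polar to pooled mural miR-142a had a lower limit of 8.74. With 3 counts put in place of 0 over the mural libraries, the ratio was 11.7. Without polar WT replicate 2, 9 counts remained in 4 of 7 polar libraries. The lower limit was then 3.34, and the ratio with 3 mural counts was 5.08. For miR-451a, which had counts in all 8 mural libraries, the ratio of pooled polar to pooled mural CPM was 4.41 (exact 95% interval 3.19 to 6.19) with all libraries and 1.16 (0.734 to 1.82) without polar WT replicate 2.

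Of the 23 counts of miR-142a, 14 were in polar WT replicate 2 and 4 in polar diapaused replicate 3, the only libraries with both arms. miR-142a-3p was at 2429 CPM in polar WT replicate 2 and at 1147 CPM in polar WT replicate 1, where 2 counts gave that level. Their ratio of 2.12 has an exact 95% interval of 0.472 to 19.5. In polar diapaused libraries miR-142a-3p was at 0 to 221 CPM, and in polar mTORi libraries it was at 0, both below the 2 polar WT libraries. The 2 counts of polar WT replicate 1 have an exact 95% interval of 139 to 4136 CPM. The share of names whose libraries separate likewise was not counted. Polar WT libraries had 14 counts of miR-142a-3p, and 3 counts were put in place of 0 in the groups without any. It was then 6.11-fold lower in polar mTORi than in polar WT libraries and 10.3-fold higher in polar WT than in mural WT libraries. The exact 95% limits nearest to no difference were ratios of 0.230 and 7.35. Of the 14 counts 12 were in polar WT replicate 2, and without it 2 counts remained. The ratio of polar mTORi to polar WT libraries then had an upper limit of 1.06, so a difference was not detectable at this depth, and that of polar WT to mural WT libraries had a lower limit of 1.59. In proportion to miR-451a, miR-142a had 12.4 counts per 100 in polar WT replicate 2 (exact 95% interval 6.56 to 21.7) and 10.5 in the other 15 libraries (4.63 to 20.8).

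miR-146b-5p, of the white blood cell list, was present throughout. It had 21, 21 and 20 counts in polar diapaused libraries, 11, 6 and 16 in polar mTORi libraries, and 1 and 11 in polar WT libraries. In mural fragments it had 11, 19 and 23 counts in diapaused, 18, 16 and 3 in mTORi, and 20 and 21 in WT libraries. It was the only one of the 7 with a count in all 16 libraries, 238 in all, and polar WT replicate 2 held 4.62% of them.

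Its level in polar WT replicate 2, 2227 CPM, lay inside the range of the other 15 libraries, 573 to 4570 CPM with a median of 2210. The coefficient of variation over the 16 libraries was 55.1% for miR-146b-5p and 236% for miR-451a, and 56.8% and 62.5% without that library. For each 100 counts of miR-451a there were 9.73 of miR-146b-5p in polar WT replicate 2 (exact 95% interval 4.73 to 18.1) and 264 in the other 15 libraries (205 to 342). For miR-155-5p the values were 1.77 (0.212 to 6.54) and 24.4 (14.4 to 39.7). miR-451a is the denominator of these proportions, so a miRNA at its usual level gives a low proportion in the library chosen for miR-451a.

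By group, miR-146b-5p averaged 1956 ± 439 CPM in polar diapaused (SD, n = 3), 3637 ± 912 in polar mTORi (n = 3) and 1400 ± 1169 in polar WT libraries (n = 2). In mural fragments it averaged 1124 ± 373 CPM in diapaused (SD, n = 3), 3131 ± 1973 in mTORi (n = 3) and 2809 ± 423 in WT libraries (n = 2). By mean, the order from high to low was polar mTORi, mural mTORi, mural WT, polar diapaused, polar WT and mural diapaused. Neighbours in this order overlapped, apart from mural WT and polar diapaused. The low values inside a group were 1 count in polar WT replicate 1 and 3 counts in mural mTORi replicate 3. The other strand of the hairpin, miR-146b-3p, had 1 count in all libraries, and miR-146a-5p had 12 counts in 4 libraries.

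**Figure D2:**
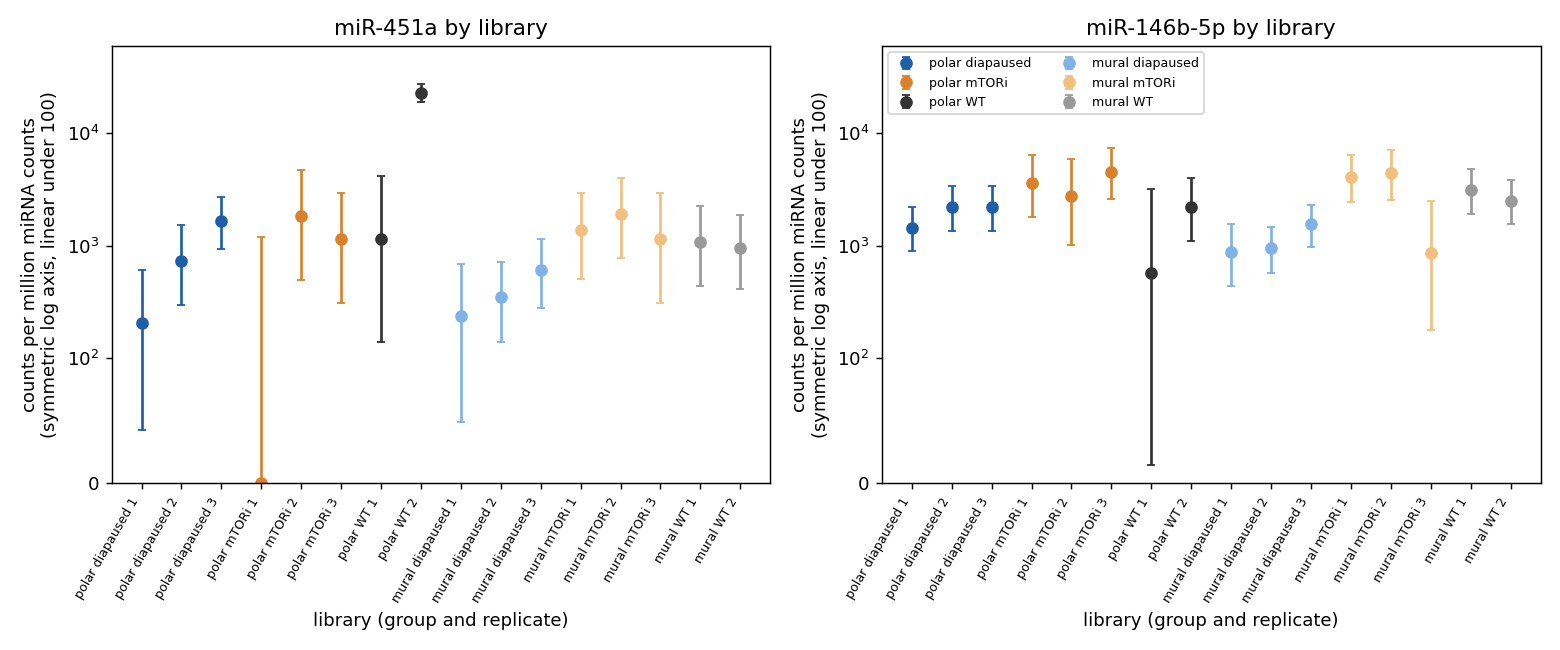
CPM of miR-451a (left) and miR-146b-5p (right) in each library, with exact 95% intervals as bars, on a symmetric log axis that is linear under 100 CPM. Colours are the 6 groups. Polar WT replicate 2 lies at 22874.5 CPM for miR-451a, above the interval of every other library, and at 2227 CPM for miR-146b-5p, among the others.

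miR-155-5p was scattered at low counts. It had 5, 0 and 0 counts in polar diapaused libraries, 1, 2 and 2 in polar mTORi libraries, and 0 and 2 in polar WT libraries. In mural fragments it had 0, 1 and 1 counts in diapaused, 0, 0 and 7 in mTORi, and 0 and 2 in WT libraries. The 23 counts fell in 9 libraries, and polar WT replicate 2 held 2 of them. Mural mTORi replicate 3, the library with the lowest mural miR-146b-5p level, held 7, the most of any library. The 7 counts of mural mTORi thus come from 1 library, and the ratio of mural diapaused to mural mTORi, 0.0691 (exact 95% interval 0.00701 to 0.363), rests on it. The passenger strand miR-155-3p had 0 counts in all libraries.

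Differences between groups were tested with edgeR's quasi-likelihood test over all 16 libraries. Of the 7 miRNAs, 2 passed the filter on low counts, miR-451a and miR-146b-5p, among 102 tested names. Calls were made where the Benjamini-Hochberg adjusted p over the 102 was under 0.05. The SE given with an edgeR difference is the size of that difference divided by the square root of the test's F statistic. The other 5 had too few counts for this fit and were examined in a fit of all 497 names with a count.

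miR-451a was called lower in polar diapaused than in polar WT libraries, with a log2 difference at -4.07 (SE 0.86, adjusted p = 0.00653 in edgeR), and lower in polar mTORi than in polar WT libraries, by -3.64 (SE 0.97, adjusted p = 0.0187). It was called higher in polar WT than in mural WT libraries, by 3.63 (SE 1.00, adjusted p = 0.0269). These 3 comparisons share the polar WT libraries, and each rests on replicate 2. Without that library the differences were -0.62 (SE 1.51, adjusted p = 0.843), -0.17 (SE 1.55, adjusted p = 0.957) and 0.09 (SE 1.52, adjusted p = 0.978), where the lone polar WT library is taken to vary like the other groups. The call in WT was also lost without mural WT replicate 1 (3.73, adjusted p = 0.108) or replicate 2 (3.54, adjusted p = 0.140). The fit called 7.84% of tested names for polar diapaused against polar WT, 22.5% for polar mTORi against polar WT and 10.8% for polar against mural WT, and 1 of the 2 tested blood cell miRNAs each time. The median log2 difference of the 102 names in these comparisons was 0.10, 0.18 and 0.03.

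In the other pairwise comparisons 0 of the 2 were called. Background shares of called names were 9.8% for mural diapaused against mural WT, 11.8% for mural mTORi against mural WT, 18.6% for polar against mural in diapause, 4.9% for polar against mural in mTORi, 15.7% for polar diapaused against polar mTORi and 0.98% for mural diapaused against mural mTORi. In mural fragments the libraries of miR-451a did not overlap between treatments, though no difference was called. The share of tested names whose libraries separate likewise was not counted, and groups this small can separate by chance. Mural diapaused libraries ran from 238 to 608 CPM, below mural mTORi at 1146 to 1937 CPM and mural WT at 956 to 1088 CPM. The gap between mural mTORi and mural WT is less than 1 count, which is worth 287 CPM in mural mTORi replicate 3. The log2 differences were -1.62 (SE 0.93, edgeR adjusted p = 0.259) for mural diapaused against mural mTORi, -1.01 (SE 0.99, adjusted p = 0.685) for mural diapaused against mural WT and 0.61 (SE 1.02, adjusted p = 0.772) for mural mTORi against mural WT. The ratio of pooled CPM between mural diapaused and mural mTORi was 0.270 (exact 95% interval 0.133 to 0.554), an interval that leaves out the spread between libraries. Between polar and mural fragments the difference was 0.58 (SE 0.88) in diapause and -0.61 (SE 1.06) in mTORi.

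The difference in a treatment's effect between polar and mural fragments was tested directly. For miR-451a the difference of differences was -3.06 (SE 1.34, edgeR adjusted p = 0.352) for diapause and -4.25 (SE 1.44, adjusted p = 0.226) for mTORi. edgeR called 0% of the 102 names for diapause and 0% for mTORi, with 12 and 14 names at an unadjusted p under 0.05, and DESeq2 called 0 and 1. Without polar WT replicate 2 the value for diapause was 0.69 (adjusted p = 0.940) and that for mTORi -0.73 (adjusted p = 0.880).

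miR-146b-5p was not called in any of the 11 comparisons. Its lowest unadjusted p-values came from diapause against mTORi, with log2 differences of -1.22 (SE 0.53, edgeR adjusted p = 0.166) in mural and -1.18 (SE 0.53, adjusted p = 0.130) in polar fragments. The polar libraries did not overlap, at 1448 to 2210 CPM in diapaused and 2747 to 4570 CPM in mTORi. For this and the comparisons below, the share of tested names whose libraries do not overlap was not counted. Groups this small can separate by chance. Mural mTORi replicate 3, at 860 CPM, lay below all 3 mural diapaused libraries, at 873 to 1553 CPM. Polar mTORi libraries also lay above the 2 polar WT libraries, at 573 and 2227 CPM (log2 difference 1.34, SE 0.67, adjusted p = 0.140), and mural diapaused libraries lay below mural WT at 2510 and 3108 CPM (-0.996, SE 0.56, adjusted p = 0.341).

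**Figure D3:**
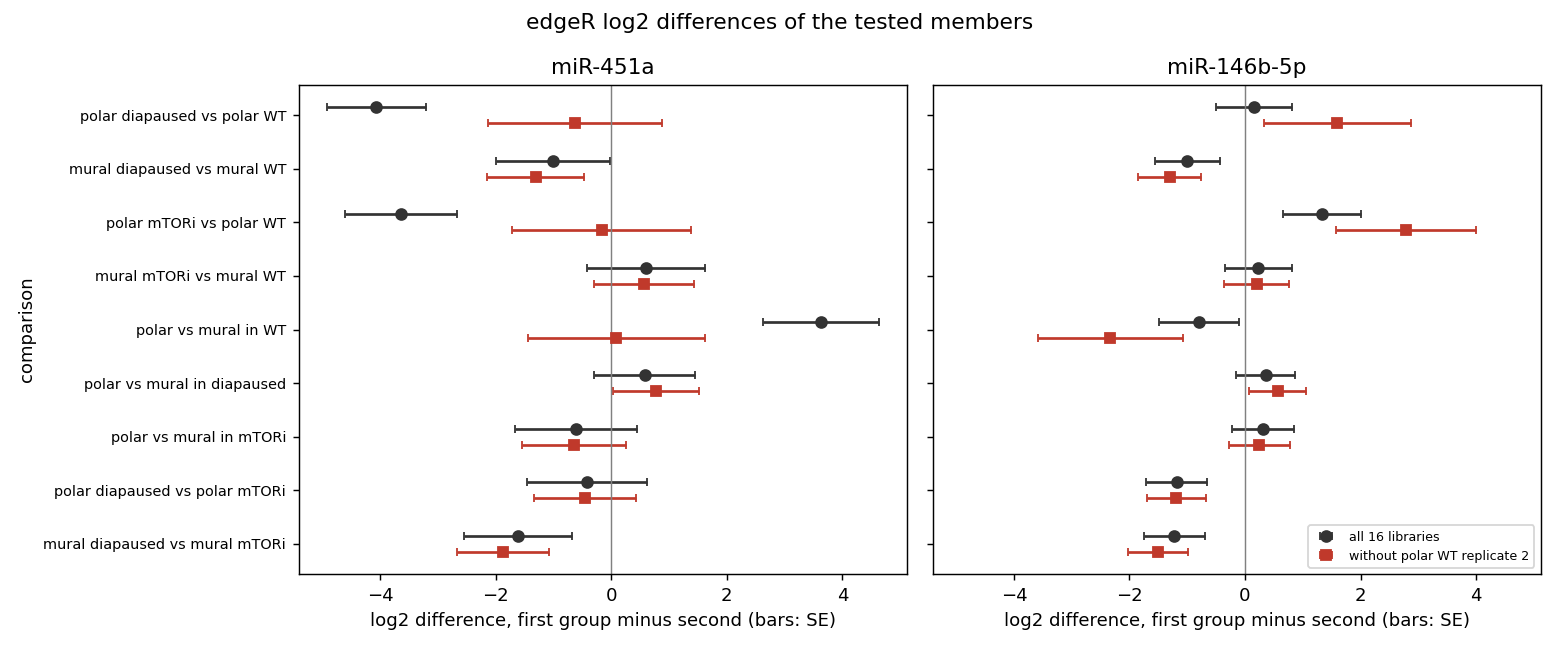
edgeR log2 differences (first group minus second) of miR-451a and miR-146b-5p in the 9 pairwise comparisons, with SE as bars. Circles use all 16 libraries and squares leave out polar WT replicate 2. The 3 called differences of miR-451a, at -4.07, -3.64 and 3.63, lie at -0.62, -0.17 and 0.09 without it.

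The 5 miRNAs under the filter gave 0 calls among 15 tests in the 3 comparisons with polar WT, and 4 of 15 had an unadjusted p under 0.05. Of all 497 names, 42, 54 and 39 had an unadjusted p under 0.05 in polar diapaused against polar WT, polar mTORi against polar WT and polar against mural WT. The fit of 497 names called 1.21% of them for polar diapaused against polar WT, 3.22% for polar mTORi against polar WT and 1.81% for polar against mural WT. The smallest adjusted p was that of miR-142a-3p in polar mTORi against polar WT (edgeR adjusted p = 0.0927). Without polar WT replicate 2 the smallest was 0.604, and 1 of 15 had an unadjusted p under 0.05.

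The make-up of polar WT replicate 2 was compared with that of its companion and of the other libraries. The ratio of CPM in polar WT replicate 2 to the other 15 libraries together was 31.2 for miR-451a (exact 95% interval 23.4 to 41.8) and 47.5 for miR-142a-3p (16.5 to 154). It was 23.7 for miR-144-3p (3.18 to 177), 14.2 for miR-144-5p (2.21 to 73.2) and 15.8 for miR-142a-5p (1.32 to 138), each from 2 or 3 counts in that library. It was 1.15 for miR-146b-5p (0.566 to 2.10) and 2.26 for miR-155-5p (0.257 to 9.25). Among names outside the blood cell list, the liver miRNA miR-122-5p had a ratio of 13.2 (3.47 to 43.8), from 5 counts in that library. Names with so few counts there were not ranked. Of the summed lists described below, endothelial names were at 3.56 (1.23 to 8.46), stromal names at 1.06 (0.338 to 2.55) and muscle names at 0. Other white blood cell and platelet names were at 1.83 (0.480 to 4.96), and miR-486 names at 7.92 (0.151 to 98.6). Of names outside the blood cell list with at least 10 counts there, the highest were miR-340-5p at 9.13 (4.68 to 16.9) and miR-2137 at 8.96 (6.91 to 11.5). miR-672-5p at 6.44 (4.88 to 8.39) and miR-5126 at 4.30 (3.28 to 5.55) came next. The library was singled out by its blood cell miRNAs, so these ratios are descriptions. miR-451a and both miR-144 arms together took 2.41% of this library and at most 0.275% of any other.

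**Figure D4:**
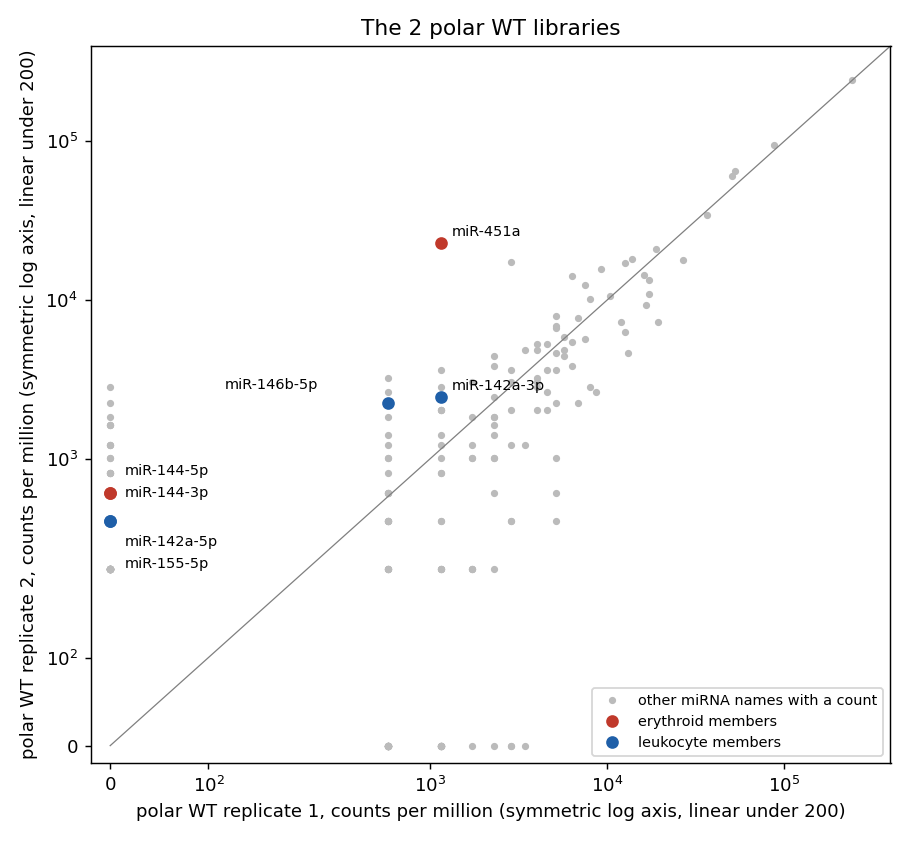
CPM of each name with a count in polar WT replicate 2 (vertical) against polar WT replicate 1 (horizontal), on symmetric log axes that are linear under 200 CPM; the line marks equal CPM. Red marks erythroid and blue marks white blood cell miRNAs. miR-451a lies at 22874.5 CPM in replicate 2 and 1147 CPM in replicate 1, while names at higher levels lie near the line.

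Other blood cell miRNAs were sparse. The erythroid miR-486a and miR-486b, which overlap on opposite strands and whose reads may be split between names, had 4 counts in 3 libraries, 1 of them in polar WT replicate 2. Of 10 further white blood cell and platelet names, 6 had a count, 56 in all, with 4 in polar WT replicate 2. The myeloid and platelet miR-223-3p had 11 counts in 5 libraries and 0 in polar WT replicate 2. The lymphocyte miR-150-5p had 15 counts in 7 libraries and 1 there, and miR-342-3p had 16 counts in 5 libraries and 3 there. The summed level of these 10 names was 810 CPM in polar WT replicate 2, against 0 to 2747 CPM in the others, where polar mTORi replicate 2 was highest. A count of 0 in polar WT replicate 2, as for miR-223-3p, has an exact 95% upper limit of 746 CPM.

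miRNAs known from other adult tissues were also present at low counts. The liver miRNA miR-122-5p had 14 counts in 7 libraries, 5 of them in polar WT replicate 2 and at most 2 in any other. The endothelial miR-126a arms had 46 counts in 11 libraries, with 6 in polar WT replicate 2 and 11 in polar diapaused replicate 3. Of the 6 stromal names 3 had a count, 111 of their 117 counts were of miR-143-3p, and polar WT replicate 2 held 5. Of the 3 muscle names 1 had a count, 3 in all and 0 in polar WT replicate 2, and both neural names were at 0 in every library. The part of maternal blood or other carried-over RNA in any of these counts was not tested, and no library of uterine fluid or medium alone was analysed here.

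The tested names whose log2 CPM was most like that of miR-451a across the 16 libraries were miR-340-5p (Pearson r 0.47, Spearman rho -0.01), miR-186-5p (r 0.41, rho 0.11) and miR-672-5p (r 0.39, rho 0.07). The highest rho was that of miR-743a-3p, at 0.49. Without polar WT replicate 2 the 3 values of r were 0.03, 0.22 and 0.03 over 15 libraries. Over those 15 the highest r was that of miR-871-3p (r 0.60, rho 0.36). The highest rho was that of miR-203-3p (r 0.39, rho 0.62). All these values are descriptions, since the libraries share differences in depth. The 3 highest values of r over all 16 libraries also rest on 1 of them. Between miR-451a and miR-146b-5p r was 0.14 (rho 0.42) with that library and 0.21 (rho 0.44) without it.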

How the data were processed

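Per the labels, small RNA was ligated to adapters carrying molecular identifiers, amplified by 12 to 20 PCR cycles without size selection and read for 75 nt on a NextSeq500. The authors deposited counts per mature miRNA name in each library, without normalization. The submitters' processing notes name GRCm38; the sources used here give neither the aligner, the miRNA annotation nor any collapsing of identifiers. The analysis used edgeR 4.0.16 in R 4.3.3: filterByExpr (minimum count 10, minimum total 15), TMM factors and a mean for each of 6 groups, with 10 residual degrees of freedom and two-sided tests. The 102 tested names held 92.83% to 97.61% of each library. Where a group had 0 counts, 3 counts over the group were the floor. Members, lists and the rule for names were chosen with earlier results of these data known. The rule named all 7 members, other blood cell miRNAs with at least 10 counts, summed lists of other cell types and the 3 tested names most correlated with miR-451a. miR-2137 and miR-5126 were added outside the rule, for their ratios in polar WT replicate 2. miR-871-3p and miR-203-3p were added for their correlation with miR-451a without that library. Alternatives were RLE factors, library size alone, DESeq2 1.42.0, no filter, only the groups compared, a replicate block and leaving out each library. Sequences came from RefSeq, gene overlaps from the GENCODE annotation of GRCm38, and folds of hairpins from RNAfold. No pair of replicates agreed within sampling noise.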

Additional observations from a re-analysis of the deposited data

How the results depend on the processing

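The 3 calls of miR-451a against or within polar WT kept their direction in each alternative run, and edgeR's adjusted p stayed under 0.05 with RLE factors, library size alone, no filter and the replicate block. With only the groups compared, miR-451a in polar mTORi against polar WT was at -3.51 (adjusted p = 0.214), and with no filter its mTORi difference between fragments was called at -4.27 (adjusted p = 0.0103). Leaving out each library gave miR-451a -4.97 to -0.62 for polar diapaused against polar WT, -4.52 to -0.17 for polar mTORi against polar WT, 0.0904 to 4.44 for polar against mural WT, -0.21 to 1.07 for polar against mural in diapause and -1.22 to 0.25 for polar diapaused against polar mTORi. The differences between fragments ran from -3.84 to 0.69 for diapause and from -5.11 to -0.73 for mTORi, the second called without polar WT replicate 1 (-5.08, adjusted p = 0.0447). miR-146b-5p ran from -0.38 to 1.60 for polar diapaused against polar WT, -0.0333 to 0.67 for mural mTORi against mural WT and -0.22 to 0.57 for polar against mural in mTORi, with no call in its 66 tests under other settings or its 176 with a library left out. The cause of these changes was not tested, beyond the lost library itself.

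Same-numbered polar and mural libraries had correlated deviations over 0.1 in 7 of 8 pairs, with r 0.11 to 0.36, and r was -0.01 for diapaused replicate 2. Pairs with different numbers ran from -0.31 to 0.18, and in mTORi all of them lay under every same-numbered pair. Both WT pairs hold the same value, since deviations from a mean of 2 libraries mirror each other. Because the labels state no pairing and not every pair passed 0.1, the main fit did not pair the samples. Whether they were paired was not settled. The replicate block fitted 1 effect per number over all treatments, so it did not model pairs within a treatment. With the replicate block, miR-451a was at -4.11 for polar diapaused against polar WT, -3.69 for polar mTORi against polar WT and 3.12 for polar against mural WT, and no call of the 2 miRNAs changed.

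Counts of called names, over all alternatives and left-out libraries, ranged more widely than the 2 miRNAs. They were 0 to 16 for polar diapaused against polar WT (8 with the 16-library fit), 1 to 14 for mural diapaused against mural WT (10), 0 to 32 for polar mTORi against polar WT (23), 6 to 21 for mural mTORi against mural WT (12), 2 to 20 for polar against mural in WT (11), 6 to 30 in diapause (19) and 0 to 10 in mTORi (5), 2 to 21 for polar diapaused against polar mTORi (16) and 0 to 9 for mural diapaused against mural mTORi (1). Differences between fragments gave 0 to 1 calls for diapause and 0 to 6 for mTORi (0 each). Group shares of the erythroid and white blood cell miRNAs moved by less than the SD with the counts of tested names as the total and with pooled counts. Depth limits miR-144, miR-142a and miR-155-5p, whose totals over all libraries are 5 to 23 counts per name, to large differences.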
